A study of Mus musculus with 8 samples.

Results

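Adcyap1, the gene of the neuropeptide PACAP (pituitary adenylate cyclase-activating polypeptide), was measured in mouse cortex together with its receptor gene Adcyap1r1 and 8 other neuropeptide precursor genes: Penk, Pdyn, Tac1, Crh, Cort, Npy, Cck and Cartpt. These 10 genes are 10 of the 22000 rows of the count table, taken by name. They were chosen by a rule that drew on the counts themselves, since Adcyap1 had been selected on its difference between the genotypes and the others were added beside it with that comparison known. Their values in the comparison of genotypes are therefore given as a description. Whether a member passed in that comparison is named in places, and is not read as a test of it. Sex, the run of animal numbers and the interactions played no part in the choice and were tested.

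Each of the 8 libraries came from the whole cortex of another mouse. The genotype label was Mef2c heterozygous for 4 mice and wild type for 4, and each group held 2 males and 2 females. Mef2c codes for a transcription factor of the MEF2 family that is active in cortical neurons. The sources used here do not give the allele, the promoter of any Cre, the strain or the age of the mice, and the labels name no treatment. The animal numbers in the titles fall into a lower and a higher run, called the first and the second run here. Either run held 1 male and 1 female of each genotype, and the labels do not say what the runs stand for.

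Neuropeptides are cut from larger precursor proteins, stored in dense core vesicles and released on strong activity to act on G protein-coupled receptors. PACAP is made by excitatory neurons in several forebrain regions, and its receptor PAC1, the product of Adcyap1r1, raises cyclic AMP in the receiving cell. In the cortex, neuropeptide Y, cortistatin and corticotropin-releasing hormone are known mainly from inhibitory interneurons, cholecystokinin from both interneurons and excitatory neurons, and enkephalin, dynorphin and substance P from smaller neuron groups. The last 3 are far more abundant in the striatum, which lies directly under the cortex.

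Total counts lay between 16092773 and 17841377 per library, and no 2 libraries of a genotype agreed within sampling noise. Levels are given in CPM, counts scaled to a common library total after TMM scaling of the libraries. Mef2c, looked at as a check of the label, was higher under the heterozygous label. It had 1233, 1336, 1391 and 1255 CPM in the 4 libraries labelled heterozygous and 1038, 938, 998 and 1002 CPM in those labelled wild type. The log2 difference of 0.39 ± 0.05 (SE) passed over all genes tested (edgeR quasi-likelihood F-test, adjusted p = 0.000154). With the allele not given, counts of the whole gene cannot settle whether the labels hold. Groups are accordingly called by their labels, and a direction between them is a direction between labels. Reads from 4 Y-linked genes summed to between 2150 and 2564 in the 4 libraries labelled male and to 0, 0, 3 and 72 in those labelled female, the 72 being in heterozygous replicate 4. Cortical markers were abundant in every library: Slc17a7, the vesicular glutamate transporter of cortical excitatory neurons, lay between 1775 and 2029 CPM and Gad1, which makes GABA in interneurons, between 345 and 414 CPM. Summed markers of excitatory neurons lay between 9735 and 10312 CPM in the heterozygous and between 9472 and 10275 CPM in the wild type libraries, and summed interneuron markers between 1948 and 2054 CPM against 1889 and 2060 CPM. The most abundant markers weigh most in these sums. Of the 14 excitatory markers 1 passed between genotypes, Rasgrf2 (log2 difference -0.33, edgeR adjusted p = 0.00636). Of the 18 tested interneuron markers 0 passed, where 0.267% of all genes did. An unadjusted edgeR p under 0.05 was found for 5 of the 14 and 6 of the 18, in both directions, and for 7.24% of all genes.

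PACAP acts through cyclic AMP, and several neuropeptide genes are themselves targets of the cyclic AMP-responsive factor CREB. The sequences before their start sites are therefore shown where the core of the cyclic AMP response element was found. RefSeq promoters of GRCm38.p6 were matched by symbol for 8 of the 10 genes, the exceptions being Penk and Crh, and the 250 bases before each start were searched on both strands. The full element TGACGTCA, which contains each shorter form, was found in 1 of the 8, Cartpt, and in 1.55% of all 32851 promoter windows. Its first 7 bases, TGACGTC, were found in Adcyap1 and Cartpt and in 2.78% of all windows. The core TGACG was found in Adcyap1, Cartpt, Tac1, Cort and Cck and in 17.8% of all windows. The 10-base consensus of the MEF2 factors, searched on both strands by its name alone, was found in 0 of the 8 and in 2.92% of all windows. The 8 were counted by gene, with a match in any window of the gene. The percentages are of windows, 32851 for 27025 genes, so counts and percentages are unlike measures. The 250 bases directly upstream of Adcyap1 lie on the plus strand at chr17:93198767-93199016, with TGACGTC in capitals, its first base 91 bases before the start:
Adcyap1: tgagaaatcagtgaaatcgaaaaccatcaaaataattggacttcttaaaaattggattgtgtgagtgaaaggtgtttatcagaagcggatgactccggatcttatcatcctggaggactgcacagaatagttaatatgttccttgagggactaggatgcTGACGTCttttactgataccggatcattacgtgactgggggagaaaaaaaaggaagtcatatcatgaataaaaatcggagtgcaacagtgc

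The Cartpt site lies on the minus strand at chr13:99900778-99900805, inside an exon of the GENCODE annotation, and starts 112 bases before the RefSeq start used here. Capitals mark the full element:
Cartpt: cggcgggcatTGACGTCAaacggcagcg

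In Tac1, Cort and Cck the core lies on the other strand, so that it reads CGTCA in the direction of the gene (capitals). The Tac1 sites are at chr6:7554854-7554878 and, inside a GENCODE exon, at chr6:7555008-7555032 on the plus strand. The Cort site is at chr4:149126767-149126791 and the Cck site at chr9:121495727-121495751, both on the minus strand:
Tac1: cctaaaattgCGTCAtttcgaacac
Tac1: tctacaggctCGTCAcgcctgagat
Cort: ccggcttgtgCGTCAccgcgtgagt
Cck: tgctggactgCGTCAgcactgggta

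These matches describe letters in a window and are not measured binding sites. No relation between the sequences and the levels given below was tested.

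Adcyap1 (chromosome 17, 93199017 to 93206537, plus strand, GRCm38) was lower in the libraries labelled heterozygous. Those libraries had 12.8, 19.6, 15.7 and 20.7 CPM in replicates 1 to 4, and the wild type libraries had 30.6, 25.7, 21.4 and 24.4 CPM. All 4 heterozygous values lay under all 4 wild type values, with the highest heterozygous library, a female at 20.7 CPM, close to the lowest wild type library, a male at 21.4 CPM. Means were 17.2 ± 3.62 CPM (SD, n = 4) and 25.5 ± 3.80 CPM (SD, n = 4), a wild type level 1.48 times the heterozygous one, and the fitted log2 difference was -0.58 ± 0.11 (SE). The gene rests on 216 to 525 reads per library. In cortex as a whole, less Adcyap1 RNA per cell and fewer cells with it cannot be told apart, which holds for every gene described here.

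Adcyap1 was the only member among the genes that edgeR called between genotypes, where called means a Benjamini-Hochberg adjusted p under 0.05: 1 of 10 members, against 37 of 13879 genes or 0.267% of all genes tested. All 10 members had passed the filter on low counts. Since the members were chosen with this comparison known, nothing is read from that share. The call was lost without wild type replicate 1 (log2 difference -0.54) or wild type replicate 2 (-0.50). It was also lost without sex as a term (-0.57), with the striatum marker level as a term (-0.50) and without heterozygous replicates 1 and 2 (-0.49).

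The genotype difference of Adcyap1 was -0.81 ± 0.14 (log2, SE) in the first run and -0.34 ± 0.14 in the second. The interaction, the second run minus the first, was 0.47 ± 0.20 and did not pass over all genes (edgeR adjusted p = 0.999). The difference was -0.45 ± 0.15 in females and -0.72 ± 0.16 in males, with an interaction of -0.28 ± 0.22 that did not pass either (edgeR adjusted p = 1). Adcyap1 was lower under the heterozygous label in either run and in either sex. That shared sign follows from the lack of overlap between the groups and is no separate result.

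Adcyap1r1 (chromosome 6, 55451978 to 55501451), the gene of the PAC1 receptor, had 163, 188, 194 and 187 CPM in the heterozygous libraries and 167, 163, 187 and 187 CPM in the wild type libraries. The groups overlapped over nearly their whole range. Means were 183 ± 13.8 and 176 ± 12.8 CPM (SD, n = 4 each), with a log2 difference of 0.05 ± 0.06 (SE). Vipr1, one of the 2 VPAC receptor genes whose products bind both PACAP and vasoactive intestinal peptide, had means of 35.0 and 34.9 CPM and a log2 difference of 0.004 ± 0.09. The other, Vipr2, had 1 to 24 reads per library and was not tested.

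**Figure D1:**
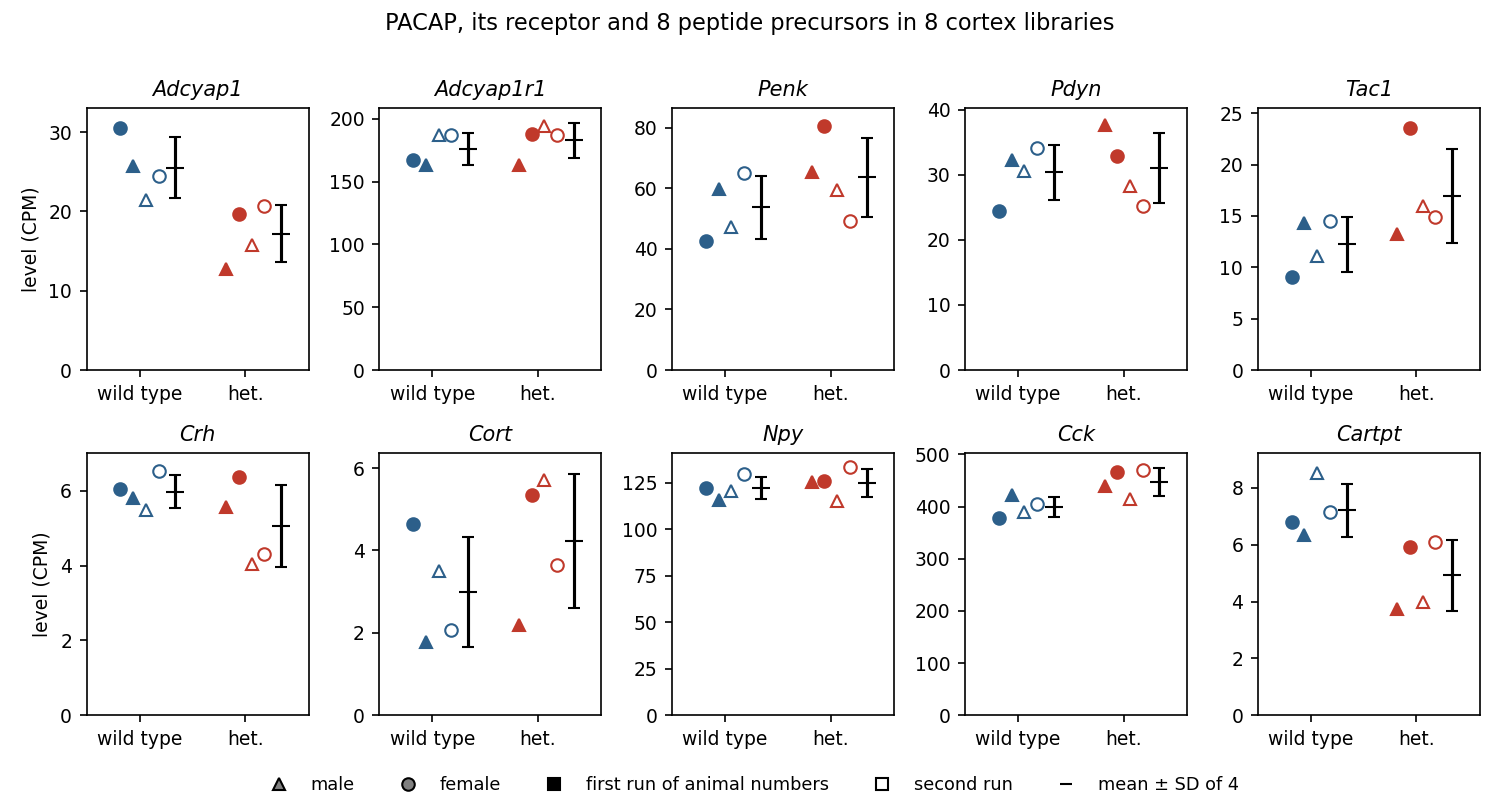
Level of the 10 members in each of the 8 libraries (y axes, CPM, each panel from 0) by genotype label, with males and females and the 2 runs of animal numbers marked and the group mean ± SD beside the points. The heterozygous points lie below all wild type points for Adcyap1 (12.8 to 20.7 against 21.4 to 30.6 CPM) and Cartpt (3.73 to 6.10 against 6.33 to 8.54 CPM) and overlap them for the other 8 genes.

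The enkephalin precursor Penk (chromosome 4, 4133531 to 4138819) had 65.3, 80.4, 59.5 and 49.1 CPM in the heterozygous libraries and 42.7, 59.9, 47.3 and 65.0 CPM in the wild type libraries. The 2 highest heterozygous values belong to replicates 1 and 2, and the remaining 2 lie within the wild type range. The log2 difference was 0.24 ± 0.21 (SE), with means of 63.6 ± 13.1 and 53.7 ± 10.5 CPM (SD, n = 4 each).

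The dynorphin precursor Pdyn (chromosome 2, 129686565 to 129699844) had 37.7, 33.0, 28.3 and 25.2 CPM in the heterozygous libraries and 24.5, 32.4, 30.5 and 34.2 CPM in the wild type libraries. The groups covered the same range, and the log2 difference was 0.03 ± 0.12 (SE). Within the runs the order turned round: both heterozygous libraries lay above both wild type libraries in the first run and below both in the second. The genotype difference was 0.32 ± 0.13 in the first run and -0.28 ± 0.13 in the second, and the interaction of -0.59 ± 0.18 had an unadjusted p of 0.00284 but did not pass over all genes (edgeR adjusted p = 0.875).

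Tac1 (chromosome 6, 7554879 to 7565834), the precursor of substance P and neurokinin A, had 13.3, 23.6, 16.0 and 14.9 CPM in the heterozygous libraries and 9.02, 14.3, 11.1 and 14.5 CPM in the wild type libraries. Heterozygous replicate 2 stood above all others, and 1 heterozygous library, replicate 1, lay within the wild type range. The log2 difference was 0.46 ± 0.20 (SE), with means of 16.9 ± 4.55 and 12.2 ± 2.68 CPM (SD, n = 4 each), and edgeR did not call it.

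Markers of striatal neurons were set beside these 3 precursors. Of 15 striatum markers listed, 13 were in the table, and their summed level was 408, 402, 319 and 291 CPM in the heterozygous libraries and 319, 305, 315 and 345 CPM in the wild type libraries. Heterozygous replicates 1 and 2 stood above all other libraries. The group means of 355 ± 59.0 and 321 ± 16.9 CPM (SD, n = 4 each) did not differ beyond that spread (two-sided exact permutation test, p = 0.343, where 4 against 4 allows no p under 0.0286). Of the defining markers, Drd2, the D2 dopamine receptor, ranged from 1.18 to 5.86 CPM and Adora2a, the adenosine receptor of the same neurons, from 1.63 to 9.97 CPM. None of the 13 markers was at 0 in all libraries, and Drd1 had no matching row.

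Over the 8 libraries, the log2 level of Penk followed the log2 summed striatum level with Pearson's r = 0.74 (exact permutation p = 0.0408, adjusted over the 10 members 0.233) and Spearman's rho = 0.69 (exact permutation p = 0.0694). For Pdyn r was 0.72 (exact permutation p = 0.0466, adjusted 0.233). Without heterozygous replicates 1 and 2, the 2 libraries farthest from the median striatum level, r fell to 0.42 for Penk and 0.53 for Pdyn, so that on this measure the relation rests in part on those libraries. No member passed the adjustment. A score that gives each marker the same weight, the mean of the centred log2 levels, gave r = 0.88 for Penk (exact permutation p = 0.00546, adjusted 0.0273) and r = 0.92 for Pdyn (exact permutation p = 0.00159, adjusted 0.0159). On that score the values without heterozygous replicates 1 and 2 were 0.82 and 0.95. Tac1 had r = 0.57 (exact permutation p = 0.142) on the score. Adcyap1 had r = -0.53 (exact permutation p = 0.176) on the summed level and 0.15 without those 2 libraries. Either run of animal numbers holds 4 libraries, fewer than the 6 set as a minimum for a correlation, so none is given within a run.

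With the log2 summed striatum level as a term of the model, the genotype difference of Penk went from 0.24 to 0.08. That of Pdyn went from 0.03 to -0.11 and that of Tac1 from 0.46 to 0.38 (log2). Without heterozygous replicates 1 and 2 the values were 0.01 for Penk, -0.18 for Pdyn and 0.34 for Tac1. The part of neighbouring tissue in the difference of Tac1 was not tested beyond these values.

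**Figure D2:**
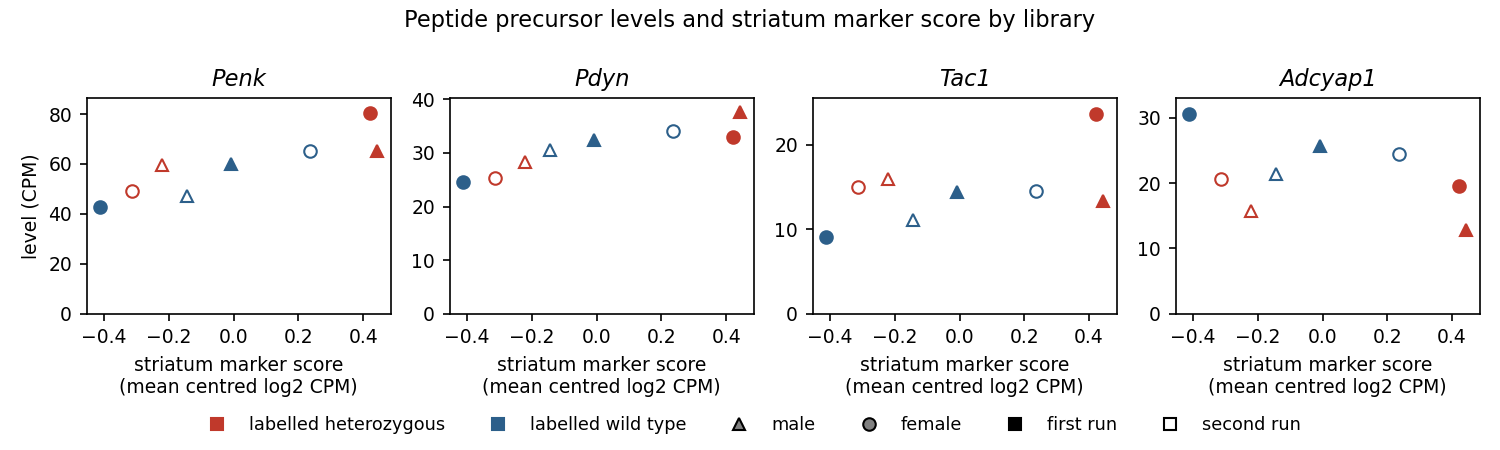
Level of Penk, Pdyn, Tac1 and Adcyap1 (y axes, CPM) against the striatum marker score (x axes, mean centred log2 CPM of the markers) in the 8 libraries, coloured by genotype label, with sex and run of animal numbers marked. Penk and Pdyn are higher at higher scores (r = 0.88 and 0.92 on log2 levels), with heterozygous replicates 1 and 2 at its upper end (0.44 and 0.42) and wild type replicate 1 at its lower end (-0.41). On the summed marker level, the main measure, r was 0.74 and 0.72, and neither gene passed the adjustment over the 10 members.

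Of the precursors known from interneurons, Npy (chromosome 6, 49822710 to 49829507), which codes for neuropeptide Y, was the most even member. It had 126, 126, 115 and 133 CPM in the heterozygous libraries and 122, 116, 121 and 130 CPM in the wild type libraries. The groups overlapped, with a log2 difference of 0.03 ± 0.05 (SE).

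Cort (chromosome 4, 149125034 to 149126763), the gene of cortistatin, a relative of somatostatin, had 2.19, 5.34, 5.72 and 3.64 CPM in the heterozygous libraries and 4.66, 1.79, 3.49 and 2.06 CPM in the wild type libraries. The groups overlapped widely, and the log2 difference of 0.49 ± 0.34 (SE) rests on 31 to 92 reads per library, and edgeR did not call it.

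Crh (chromosome 3, 19693401 to 19695396), the gene of corticotropin-releasing hormone, had 5.57, 6.38, 4.04 and 4.31 CPM in the heterozygous libraries and 6.05, 5.82, 5.50 and 6.54 CPM in the wild type libraries. The 2 heterozygous libraries of the second run lay below all others and the 2 of the first run lay within the wild type range. The log2 difference was -0.24 ± 0.18 (SE) over all libraries, 0.007 in the first run and -0.53 ± 0.24 in the second, on 65 to 110 reads per library.

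Cck (chromosome 9, 121489824 to 121495694), the cholecystokinin gene, had 439, 467, 414 and 469 CPM in the heterozygous libraries and 378, 421, 390 and 406 CPM in the wild type libraries. Heterozygous replicate 3 lay just below wild type replicate 2, and the other heterozygous libraries lay above all wild type ones. The log2 difference was 0.16 ± 0.05 (SE), close to the same in the first run (0.18) and in the second (0.15), and edgeR did not call it.

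Cartpt (chromosome 13, 99898489 to 99901091), the precursor of the CART peptides, had 3.73, 5.92, 3.98 and 6.10 CPM in the heterozygous libraries and 6.81, 6.33, 8.54 and 7.15 CPM in the wild type libraries. The groups did not overlap, by a narrow margin between 6.10 and 6.33 CPM. Means were 4.93 ± 1.25 and 7.21 ± 0.947 CPM (SD, n = 4 each), a wild type level 1.46 times the heterozygous one, with a log2 difference of -0.57 ± 0.18 (SE) on 63 to 149 reads per library. This is close in size to the difference of Adcyap1, with a larger error, and edgeR did not call it.

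Adcyap1 and Cartpt were thus 2 of 10 members with all heterozygous libraries below all wild type libraries, where 2.38% of all genes tested had that order, and 0 of 10 members had all heterozygous libraries above, where 2.16% of all genes did. Of the 10 members 7 had a log2 difference above 0, with a median of 0.04. Over all genes, 6872 of 13879 lay above 0, with a median of -0.0011. Nothing is read from these shares, since the members were chosen with this comparison known.

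**Figure D3:**
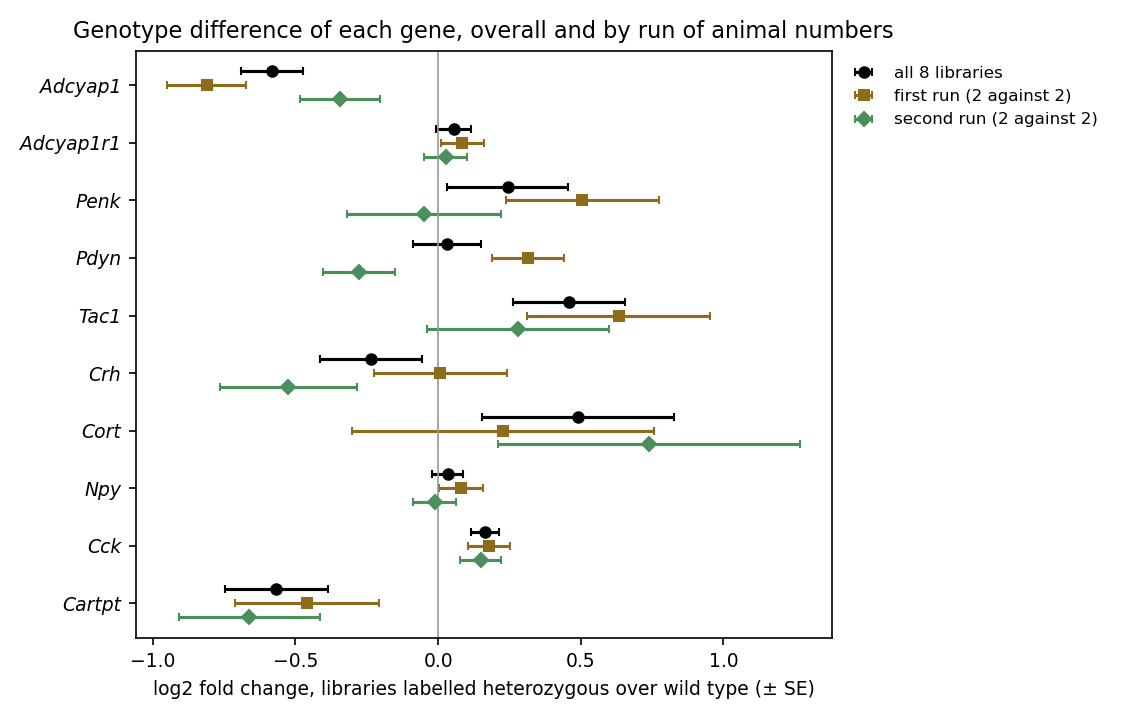
Genotype difference of each member (x axis, log2, heterozygous minus wild type, fitted value with 1 SE), over all libraries and within each run of animal numbers. Adcyap1 lies at -0.58 and Cartpt at -0.57, and Pdyn is the member whose values within the runs lie on opposite sides of 0 by more than 1 SE (0.32 and -0.28).

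Summed hippocampus markers did not overlap between the genotypes, at 216 to 252 CPM in the heterozygous and 201 to 213 CPM in the wild type libraries (two-sided exact permutation test, p = 0.0286, the smallest that 4 against 4 allows), although their mean centred log2 score did not differ beyond its spread (exact permutation p = 0.4). Of its 9 tested markers, edgeR called Wfs1 (log2 difference 0.44 ± 0.07, adjusted p = 0.00265) and Fibcd1 (0.77 ± 0.13, adjusted p = 0.00462), both higher under the heterozygous label. The mean of Wfs1 alone, 150 against 111 CPM, differs by more than the sum does, and the gene is also expressed in cortical neurons. Npnt, at 34.5 against 56.0 CPM (log2 difference -0.70 ± 0.13, edgeR adjusted p = 0.0692, called by DESeq2), and Trpc6, at 8.91 against 11.2 CPM (-0.34 ± 0.14, edgeR adjusted p = 0.562), had values in the other direction. The part of hippocampal tissue in the difference of Adcyap1, Cartpt or Cck was not tested. Of 11 hypothalamus markers 1 was at 0 in every library and their sum lay between 0.497 and 2.46 CPM, and the part of hypothalamic tissue in the values of Crh and Cartpt, both known from there, was not tested.

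Levels of different genes were compared per kilobase of annotated exon. Cck was highest, with a median of 320 CPM per kilobase (290 to 360 over the 8 libraries), followed by Npy at 219 (204 to 235), and these ranges did not overlap each other or those of any other member. Penk at 36.5 (26.1 to 49.2) and Adcyap1r1 at 28.3 (24.6 to 29.4) came next with overlapping ranges, then Pdyn at 10.9 (8.48 to 13.0). Adcyap1 at 5.57 (3.39 to 8.09), Cort at 5.27 (2.64 to 8.44), Cartpt at 4.87 (2.92 to 6.68), Crh at 4.31 (3.06 to 4.96) and Tac1 at 4.25 (2.65 to 6.93) shared the lowest band, and their order within it did not exceed their spread. Dividing by the longest transcript instead moved Tac1 to a median of 7.31, ahead of Adcyap1 at 6.20.

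The spread between mice of a genotype and sex differed widely among the members. The residual SD of log2 CPM was smallest for Npy at 0.0575, the 9.35th percentile of all genes tested, and for Cck at 0.0799, the 23.1th percentile. It was largest for Cort at 0.581 (percentile 99.2), Tac1 at 0.357 (percentile 92.7) and Penk at 0.315 (percentile 89.2). Adcyap1 stood between them at 0.181 (percentile 69.4). From the lowest to the highest library, Npy varied 1.16-fold, Adcyap1 2.39-fold and Cort 3.20-fold. Cort, Crh and Cartpt rest on the fewest reads, whereas Tac1 and Penk were measured at higher counts.

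Sex was tested over all genes in the same fit. Of the 10 members 0 were called by edgeR, DESeq2 or limma-voom, and 1, Adcyap1, had an unadjusted p under 0.05 in each tool. Over all genes edgeR called 4 of 13879, or 0.0288%, and 2.92% had an unadjusted p under 0.05. Adcyap1 was at 23.8 ± 4.95 CPM in females and 18.9 ± 5.77 CPM in males (SD, n = 4 each), a log2 difference, male minus female, of -0.35 ± 0.11 (SE) that did not pass over all genes (edgeR adjusted p = 0.9997). In either genotype and either run the female lay above the male, each time 1 mouse against 1. This order restates the same difference and is no separate result. The other members had sex differences between -0.26 (Cort) and 0.14 (Pdyn).

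The difference between the sexes in the genotype effect was called for 0 of 10 members and for 0% of all genes. Cartpt alone had an unadjusted p under 0.05 in edgeR, and 0 members did in DESeq2 and limma-voom, where 2.64% of all genes did in edgeR. Its genotype difference was -0.22 in females and -0.95 in males, with an interaction of -0.73 ± 0.33 (edgeR adjusted p = 1).

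The run of animal numbers was called for 0 of 10 members by edgeR, DESeq2 or limma-voom, where edgeR called 53 of 13879 genes or 0.382%. The 1 member with an unadjusted p under 0.05, which 10.2% of all genes had, was Adcyap1r1, at 170 ± 11.9 CPM in the first run and 189 ± 3.51 CPM in the second (SD, n = 4 each), a log2 difference of 0.15 ± 0.05 (edgeR adjusted p = 0.241). The interaction of genotype with the run was called for 0 of 10 members and for 1 gene in all, 0.00721%. Adcyap1 and Pdyn had an unadjusted p under 0.05 in edgeR and limma-voom, and Pdyn alone in DESeq2, and 4.09% of all genes did in edgeR.

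The 5 genes whose centred log2 levels over the 8 libraries lay nearest to those of Adcyap1, among 12861 genes searched, were C2cd4b, Htr7, Pla2g5, Klhl33 and Klc3, with root-mean-square differences of 0.101, 0.128, 0.131, 0.170 and 0.176. The spread of Adcyap1 about its own mean on the same scale was 0.364. Htr7, a serotonin receptor gene, had 8.74 ± 1.97 CPM in the heterozygous and 13.5 ± 1.09 CPM in the wild type libraries (SD, n = 4 each), a log2 difference of -0.64 ± 0.13 that edgeR called (adjusted p = 0.0389). C2cd4b had means of 3.30 and 4.76 CPM and was not called. Likeness to a gene chosen for its genotype difference selects genes with that difference, so their genotype values are no separate result.

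Other genes of neuropeptide signalling were counted from lists. Of 17 tested other precursors, such as Sst and Vip, 0 were called between genotypes by edgeR (2 at an unadjusted p under 0.05, Edn3 and Sst, where 7.24% of all genes were), with 10 above 0 and a median of 0.03. Edn3, an endothelin precursor, had 6.83 ± 0.976 against 4.71 ± 0.660 CPM (SD, n = 4 each; log2 difference 0.54 ± 0.18, edgeR adjusted p = 0.320). Sst, the somatostatin gene, had a genotype difference of 0.18 ± 0.08 (edgeR adjusted p = 0.616). Sst rose between the runs: it had 226, 244, 200 and 197 CPM in the first run and 269, 259, 246 and 236 CPM in the second, with no overlap, a log2 difference of 0.22 ± 0.05 (edgeR adjusted p = 0.0391). That call was kept in 1 of 8 fits that left out 1 library.

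Of 28 tested neuropeptide receptors and binding proteins, 0 were called between genotypes by edgeR (7 at an unadjusted p under 0.05: Cckbr, Crhbp, Crhr1, Galr2, Ntsr1, Oprk1 and Trhr, where 7.24% of all genes were), 1 by DESeq2 and 0 by limma-voom, with 23 above 0 and a median of 0.10. The 2 of smallest p were both lower under the heterozygous label. Cckbr, the main cholecystokinin receptor of the cortex, had 101, 96.2, 103 and 92.5 CPM in the heterozygous and 125, 108, 121 and 118 CPM in the wild type libraries, with no overlap. Its log2 difference was -0.26 ± 0.06 with an edgeR adjusted p of 0.0684, so that it missed the threshold. It passed in 4 of 10 other settings, DESeq2, no filter, no sex term, and sex and animal run as terms (adjusted p from 0.0181 to 0.125 over the 10), and in 2 of 8 fits that left out 1 library (0.0404 to 0.306). Crhr1, the corticotropin-releasing hormone receptor, had 24.2 ± 2.11 against 30.7 ± 2.28 CPM (SD, n = 4 each; log2 difference -0.35 ± 0.09, edgeR adjusted p = 0.122). The other 5 had values above 0 and were not called: Crhbp, whose product binds corticotropin-releasing hormone, had means of 27.0 against 20.4 CPM, the neurotensin receptor gene Ntsr1 8.91 against 5.77 CPM, the dynorphin receptor gene Oprk1 10.6 against 7.66 CPM, the galanin receptor gene Galr2 1.41 against 0.730 CPM and the thyrotropin-releasing hormone receptor gene Trhr 4.69 against 2.78 CPM. Without heterozygous replicate 1 edgeR called 3 of the 28, Cckbr, Crhbp and Ntsr1, without wild type replicate 2 it called Cckbr, and without heterozygous replicates 1 and 2 it called Crhbp.

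Of 21 genes of peptide processing and dense core vesicles, 0 were called by edgeR (2 at an unadjusted p under 0.05), with 13 above 0 and a median of 0.01. Pcsk1, a convertase that cuts precursors, had a log2 difference of -0.17 ± 0.07 (edgeR adjusted p = 0.539), and Cadps2, which primes dense core vesicles, 0.15 ± 0.06 (edgeR adjusted p = 0.560). Of 30 genes of cyclic AMP and protein kinase A signalling, which lie downstream of PAC1, 0 were called (2 at an unadjusted p under 0.05), with 17 above 0 and a median of 0.01. Prkar1b, a regulatory subunit of the kinase, had -0.12 ± 0.04 (edgeR adjusted p = 0.439) and Adcy8, an adenylate cyclase, -0.24 ± 0.09 (edgeR adjusted p = 0.504).

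**Figure D4:**
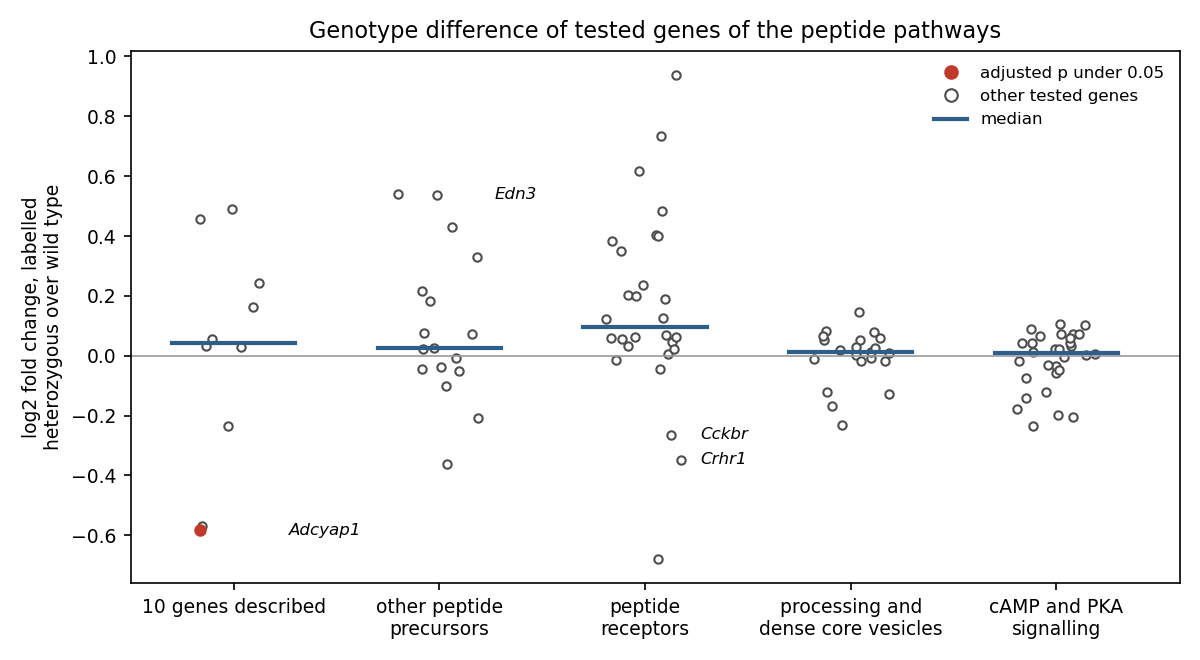
Genotype difference of each tested gene (y axis, log2, heterozygous minus wild type) among the 10 genes described and in the 4 lists of neuropeptide signalling (x axis), 1 point per gene, filled where edgeR called it, with the median of each group as a line. The medians lie between 0.01 and 0.10, and Adcyap1 is the only gene in these lists that edgeR called.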

How the data were processed

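Whole cortex RNA of 8 mice was enriched for polyadenylated RNA and sequenced. Raw read counts by gene symbol were deposited, made with STAR 2.5.2b and HTSeq on mm10 per the submitters' processing notes. The sources used here do not give the annotation or strand setting, so a gene's reads may include those of an antisense transcript. Symbols were matched to GENCODE vM21 (GRCm38). Of 22000 rows, 13879 passed edgeR's filterByExpr by genotype (minimum count 10). Libraries were scaled by TMM and tested with edgeR 4.0.16 (R 4.3.3, robust quasi-likelihood F-test) with sex and genotype as terms, p-values being adjusted by Benjamini-Hochberg over all genes tested. An SE is the log2 difference divided by the root of F. The fit was tested on simulated counts with 50 genes changed at each of the folds 1.3, 1.5, 2 and 3. So many changed genes ease the adjusted threshold, so recovery in the data themselves may be lower. Of those changed 1.5-fold, it recovered 37 for genotype, 14 for genotype by sex and 16 for genotype by run. Most interactions of that size were thus missed. Unchanged genes that were called numbered 3 for genotype, 17 for sex and 22 for animal run.

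The members and gene lists were chosen with earlier results of these data known. Named genes were Mef2c, the 10 members, per list up to 3 called genes or the 2 of smallest p, the 5 genes nearest to Adcyap1, and defining markers, some of which are not reported here. Log2 levels used 0.5 CPM as pseudocount. Correlations used exact permutation tests (scipy 1.17.1). Alternatives included DESeq2 1.42.0, limma-voom (limma 3.58.1), other scalings, filters and covariates, and leaving out each library. P-values set a difference or relation against the variation between these 8 mice. For edgeR, the variation of each gene is drawn towards that of other genes.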

Additional observations from a re-analysis of the deposited data

Results flagged for a closer look

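Among the 36 sets of 4 libraries looked at, 1 held a library apart from the other 3 by Dixon's criterion. The summed hippocampus markers were at 201 CPM in wild type replicate 3 and at 211 to 213 CPM in the other wild type libraries, a gap of 0.854 of the group's whole range. Chance alone sets about 1 in 20 groups apart in this way. No member stood out in either genotype.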

How the results depend on the processing

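The genotype comparison called 37 genes, against 82 with no filter, 80 with DESeq2, 72 with sex and the animal run as terms, and 19 to 80 when 1 library was left out. The animal run called 53 genes, against 95 with no filter and 11 to 77 with 1 library left out. Its interaction with genotype called 1, against 14 with no filter, 4 with DESeq2 and 0 to 7 with 1 library left out. Sex called 4 genes (2 to 6) and its interaction with genotype 0 (0 to 2). The relation of Penk and Pdyn to the striatum markers passed with the equal-weight score (r = 0.88 and 0.92) and not with the sum. The genotype difference of Adcyap1 lay between -0.67 and -0.50 with 1 library left out.

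Small differences changed sign: with limma-voom the sex difference of Penk was 0.0041 and the genotype by sex interaction of Cort -0.0050, and that of Crh was -0.0016 with upper-quartile scaling and -0.000113 with no filter. Leaving out 1 library turned the sign of the following log2 values. Genotype: Pdyn -0.067 to 0.14. Sex: Adcyap1r1 -0.089 to 0.012, Cort -0.61 to 0.0021, Penk -0.16 to 0.13, Tac1 -0.32 to 0.051. Animal run: Adcyap1 -0.18 to 0.037, Cartpt -0.0019 to 0.30, Cck -0.075 to 0.024, Cort -0.22 to 0.45, Penk -0.34 to 0.0020, Tac1 -0.27 to 0.19. Genotype by sex: Adcyap1r1 -0.19 to 0.066, Cort -0.68 to 0.73, Crh -0.25 to 0.31, Npy -0.075 to 0.048, Pdyn -0.18 to 0.30, Penk -0.38 to 0.35. Genotype by run: Adcyap1r1 -0.16 to 0.050, Cartpt -0.53 to 0.17, Cck -0.17 to 0.095, Cort -0.37 to 1.32, Tac1 -0.89 to 0.15. The cause of these changes was not tested beyond the smaller number of samples. No paired analysis was possible because the labels give no replicate numbers shared between the genotypes, and no litter or pair; the fit with sex and animal run as terms uses the matching they do give.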

Other observations

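The run in which Pdyn was higher under the heterozygous label was also the run in which other genes known from the striatum were. For all 10 tested striatum markers the interaction of genotype with the run of animal numbers, the second run minus the first, was below 0, with a median of -0.61 (log2), where 6991 of 13879 genes were above 0. Markers of 1 tissue can rise and fall together, so these are not 10 separate results, and each run sets 2 mice against 2. Heterozygous replicates 1 and 2, both of the first run, had the highest summed striatum level (408 and 402 CPM). The part of striatal tissue in the interaction of Pdyn was not tested. Drd2, the D2 dopamine receptor, had the values 5.86 and 4.99 CPM in the heterozygous and 1.22 and 2.36 CPM in the wild type libraries of the first run, against 1.18 and 1.57 CPM and 2.63 and 5.75 CPM in the second. Its interaction of -3.17 ± 0.56 (SE) missed the threshold over all genes (edgeR adjusted p = 0.0657), whereas DESeq2 called Drd2, and edgeR with no filter on low counts called Drd2, Adora2a and Syndig1l. Oprk1, the receptor of dynorphin, had an interaction of -0.94 ± 0.27 (edgeR adjusted p = 0.725).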
